A study of Mus musculus with 30 samples.

Results

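Spermidine is a polyamine that animals make and also take in from food and gut bacteria. Given alone in the drinking water, it was compared here with no treatment in the colon of wild-type (WT) mice, in a series on spermidine and the loss of spermine oxidase during colon carcinogenesis. The comparison takes 6 of the 30 RNA-seq libraries of that series: 3 labelled WT and untreated, and 3 labelled WT and given 14 mM spermidine for 56 days. All 6 came from male C57BL/6 mice bred in house and matched for age at 8 to 12 weeks, and neither group received the carcinogen azoxymethane (AOM) or the colitis agent dextran sulfate sodium (DSS). Both groups carry the wild-type genotype, and their labels record no colitis and no tumor. Members were taken by label alone, so no measured value chose them. The design text gives 3 mice a group, and the labels name no batch, cage, colon segment or pairing. The other 24 libraries are used below only for comparison. They hold Smox-/- mice (labelled Smox), with or without spermidine, and mice of both genotypes given AOM at 12.5 mg/kg followed by 3 cycles of 4% DSS, with or without spermidine, as non-tumor or tumor tissue.

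Polyamines are made from ornithine: ornithine decarboxylase (Odc1) makes putrescine, from which spermidine and then spermine are built. Spermine oxidase (Smox) turns spermine back into spermidine and releases hydrogen peroxide and an aldehyde, and the acetyltransferase Sat1 marks polyamines for oxidation or export. Antizymes hold Odc1 and uptake down when polyamines are plentiful. Spermidine is also the donor for hypusine, the modified residue that the translation factor Eif5a needs.

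Of 19558 genes tested with edgeR's quasi-likelihood test, 1 differed at an adjusted p under 0.05, which is 0.00511% of the genes tested. It was Tmx4, a thioredoxin-related protein of the endoplasmic reticulum membrane, and it fell. Tmx4 (ENSMUSG00000034723.11) lies on the minus strand of chromosome 2 at chr2:134594185-134644145 in GRCm38. Smox, the gene deleted elsewhere in the series, lies on the plus strand of the same chromosome at chr2:131491496-131525922. The 250 bases before the RefSeq start of each gene (inside the GENCODE gene for Smox, and overlapping its first bases for Tmx4) are shown because these are the called gene and the gene of the enzyme that acts on the supplied polyamine's product. They come from RefSeq (GRCm38.p6), 5′ to 3′ on the gene's strand, with each GC box (GGGCGG on either strand, the core that Sp1-type factors bind) in capitals. The Tmx4 window is chr2:134644122-134644371 and the Smox window chr2:131491612-131491861.
Tmx4: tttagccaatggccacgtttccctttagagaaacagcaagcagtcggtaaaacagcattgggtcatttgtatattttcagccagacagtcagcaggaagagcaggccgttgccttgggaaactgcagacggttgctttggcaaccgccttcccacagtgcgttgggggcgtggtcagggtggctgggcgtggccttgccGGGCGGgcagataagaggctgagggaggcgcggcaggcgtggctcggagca
Smox: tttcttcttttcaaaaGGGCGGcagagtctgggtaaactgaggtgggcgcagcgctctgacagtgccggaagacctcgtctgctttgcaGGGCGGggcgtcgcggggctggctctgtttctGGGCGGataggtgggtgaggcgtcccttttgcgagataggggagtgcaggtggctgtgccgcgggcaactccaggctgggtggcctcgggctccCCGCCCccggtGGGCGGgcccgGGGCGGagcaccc
The Tmx4 window held 1 GC box and the Smox window 6, and 32.7% of the 32851 promoters of the table hold at least 1 in a window of this length. A match is a description of the letters and not a bound site.

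Tmx4 measured 26.7, 28.4 and 27.1 CPM (counts scaled to the size of the library, with TMM factors) in untreated replicates 1, 2 and 3, and 10.4, 11.3 and 12.6 CPM in spermidine replicates 1, 2 and 3. The untreated libraries all sat above 26 CPM and the treated libraries all under 13 CPM, with no overlap. The mean was 27.4 ± 0.895 CPM (SD, n = 3) in untreated and 11.4 ± 1.13 CPM (SD, n = 3) in spermidine colon, a log2 fold change of -1.26 (SE 0.19, edgeR adjusted p = 0.0151). Raw counts were 1408 to 2048 in untreated and 569 to 656 in treated libraries, so counting error is small beside this difference. The call was lost when any library other than untreated replicate 3 was left out (adjusted p 0.0684 to 0.132) and when only these 6 libraries were fitted (0.24), while the log2 fold change stayed between -1.16 and -1.29. Within 1 Mb of Tmx4 the table holds 6 genes, of which 2 were tested, Hao1 and Plcb1, and 0 of these had an unadjusted p under 0.05. Hao1 was near the floor, at 0.0547 CPM or less in each library. Plcb1 measured 6.5, 9.99 and 9.7 CPM untreated and 4.76, 5.96 and 5.89 CPM treated. Its treated libraries were all lower, as for Tmx4, at a log2 fold change of -0.66 (edgeR adjusted p = 0.346).

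Over all 30 libraries the 3 untreated WT libraries stood above all 27 others for Tmx4. The highest of those others measured 26.3 CPM. Smox libraries without treatment measured 10.9 to 13.3 CPM, overlapping the spermidine-treated WT libraries, and Smox libraries with spermidine 16.1 to 22.5 CPM. For Epn3, an epithelial adaptor of clathrin-mediated endocytosis, the untreated WT libraries lay below all 27 others. Such separation of the untreated WT group was found for 106 genes (0.542% of those tested), 66 above (0.337%) and 40 below (0.205%) the rest, and for 82 genes (0.419%) the spermidine-treated WT group stood apart from its 27 others. In the remaining groups the count ran from 6 genes (0.0307%, Smox with spermidine) to 325 (1.66%, WT tumors with spermidine).

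**Figure D1:**
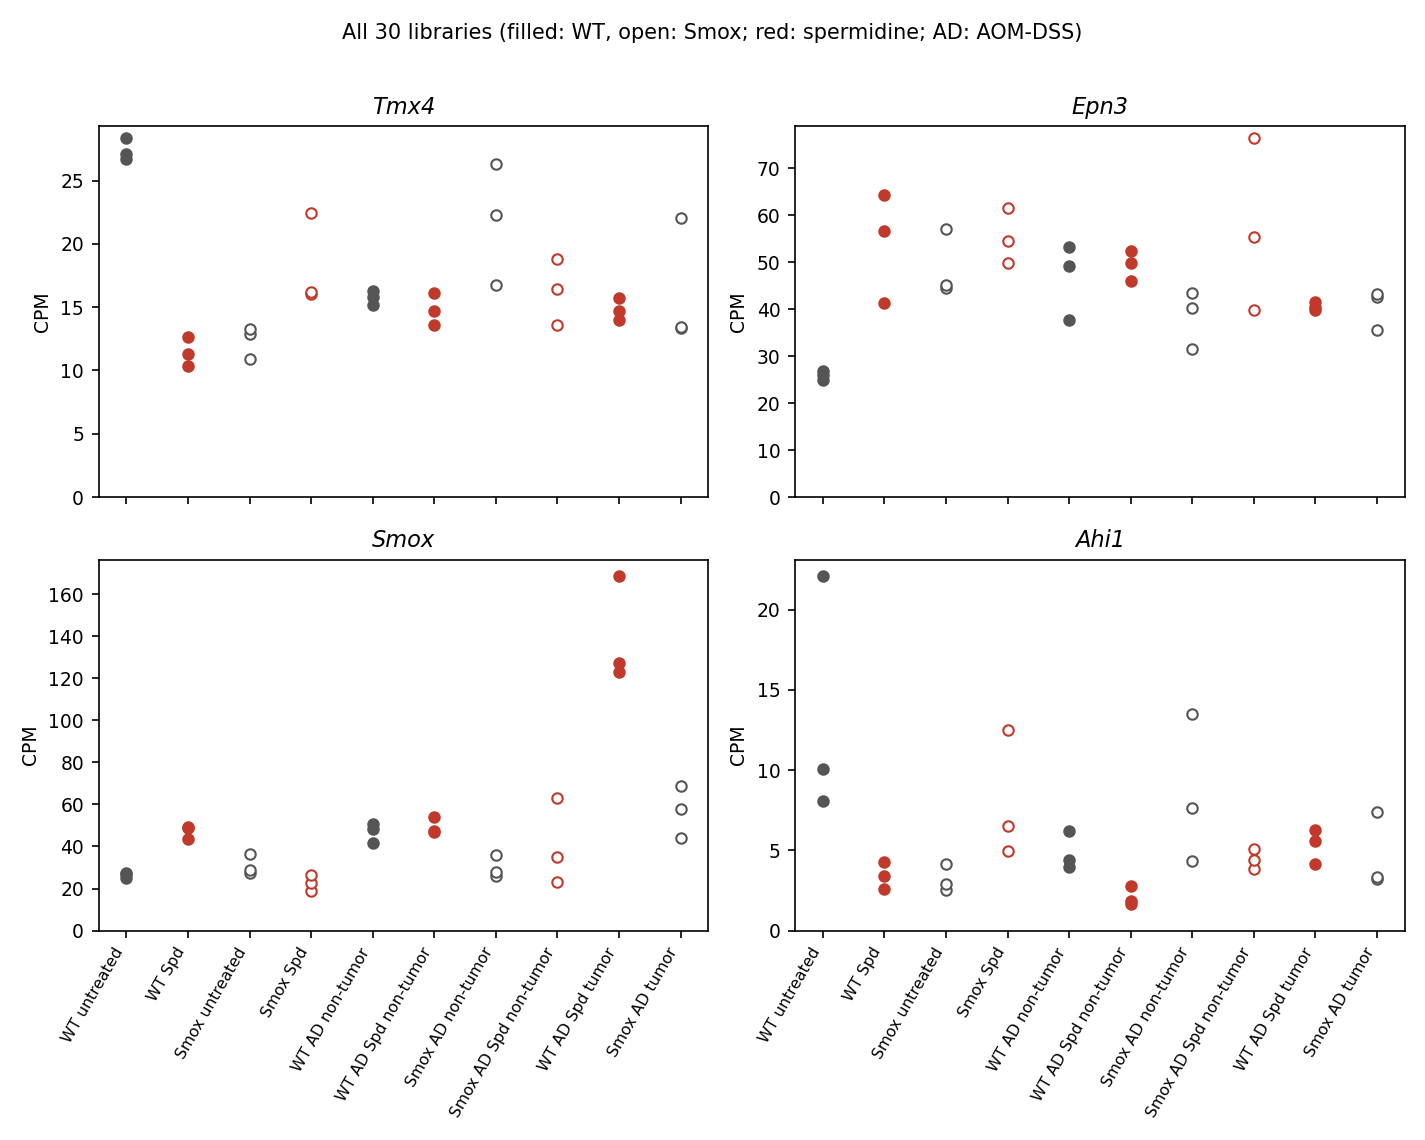
CPM (vertical axis) of Tmx4, Epn3, Smox and Ahi1 in each of the 10 groups of the series (horizontal axis), 1 point per library, filled for WT and open for Smox, red with spermidine. Untreated WT libraries are the highest for Tmx4 (26.7 to 28.4 CPM) and the lowest for Epn3 (25 to 26.7 CPM).

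The libraries were deep and uneven. Totals ran from 67255670 to 72268614 counts in the untreated and from 58486221 to 64240604 in the treated group, and replicates differed by 13.2 to 148 times sampling noise, so none was a repeat of another. Untreated replicate 3 stood apart: the largest ratios, 135 and 148, were its own against its group mates. Mitochondrial genes took 21.7% of its counts against 4.84% to 8.65% in the other 5. Its 18 skeletal muscle genes summed to 12501 CPM against 22.9 to 463 CPM in the other 5, and its 10 Hox genes that mark the distal gut to 38.5 CPM against 459.6 to 781 CPM. In spermidine replicate 1, 15 squamous epithelium genes summed to 391 CPM against 21.5 to 106 CPM in the other 5. In spermidine replicate 2, 11 MHC class II genes summed to 3741 CPM against 422 to 581 CPM. Markers of the labelled tissue were present in all 6, with 21 colonocyte genes summing to 12211 to 41535 CPM, while 3 of 14 pancreas genes passed the filter on low counts and summed to 36.4 to 342 CPM, lowest in untreated replicate 3. The part of these differences in the results below was not tested, and in bulk tissue fewer cells of a type and less RNA per cell cannot be told apart.

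In all, 3152 genes (16.1%) had an unadjusted p under 0.05, 1061 of them higher with spermidine (5.42%) and 2091 lower (10.7%). The lowest adjusted p that missed the threshold was 0.0876, and 29 genes were under 0.1, 20 of them higher. Fold changes were larger among the lower genes. In 1479 genes (7.56%) all 3 treated libraries lay above all 3 untreated ones, with a median log2 fold change of 0.38. In 2770 genes (14.2%) they all lay below, with a median of -1.29, and untreated replicate 3 was the highest library in 2031 of these. The median over all genes was -0.04, and 45.3% of genes had a fold change above 0. Leaving out untreated replicate 3 raised the counts without overlap to 3442 (17.6%) and 5384 (27.5%), where fewer libraries are compared. DESeq2 called 910 genes (4.97%; 331 higher, 579 lower) and limma-voom with quality weights 4312 (22.0%; 1921 higher, 2391 lower) from these counts. In the limma-voom fit the weights of untreated replicates 1, 2 and 3 were 3.93, 1.05 and 0.146. Its untreated mean therefore rested mostly on replicate 1, and replicate 3 counted little. Tmx4 and the 28 other genes of the naming rule (Smox, 12 higher, 11 lower and 4 from the fit without untreated replicate 3) were called by both. All of these but Smox were chosen by low p on these same counts, so the calls are no independent check.

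Polyamine genes came first among the lists. Each count without overlap below stands against the 7.56% higher and 14.2% lower of all genes. Of 11 synthesis genes tested, 1 was higher and 4 lower without overlap. Odc1 measured 155, 139 and 180.0 CPM in untreated and 249, 195 and 187 CPM in treated libraries, so every treated library was above every untreated one, at a log2 fold change of 0.41 (SE 0.20, adjusted p = 0.311). Ass1, argininosuccinate synthetase, which feeds arginine to the ornithine pool, measured 68.9, 55.5 and 110.1 CPM untreated and 39.4, 31.4 and 30.6 CPM with spermidine (adjusted p = 0.101), with all treated libraries lower. Azin2, a relative of Odc1 that binds antizyme, measured 3.79, 4.47 and 7.39 CPM untreated and 2.5, 1.97 and 2.73 CPM with spermidine (adjusted p = 0.224). The list's median log2 fold change was -0.03, beside -0.04 for all genes.

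Among 7 catabolic genes, 6 had a fold change above 0 and 1, Smox, was without overlap. Smox measured 26.7, 25.1 and 27.6 CPM in untreated and 48.8, 49.4 and 43.7 CPM in treated libraries, 1.79-fold higher by the fit with every treated library above every untreated one. Its log2 fold change was 0.84 (SE 0.24), with an unadjusted p of 0.00203 and an adjusted p of 0.124, so it did not pass the test. Sat1, at 205, 157 and 332 CPM untreated and 199, 295 and 352 CPM treated, overlapped between the groups. Aldh9a1, which oxidises the aminoaldehydes of polyamine breakdown, measured 60.5, 57 and 81.3 CPM untreated and 79.9, 81.3 and 83 CPM treated, where untreated replicate 3 reached the treated level. The libraries labelled Smox were not low in Smox counts (27.4 to 36.2 CPM untreated, 18.6 to 26.6 CPM with spermidine), so the gene total does not check that label, and a count over the whole gene need not show a partial deletion.

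Of 18 transport and antizyme genes, 1 was higher and 3 lower without overlap, shares near those of all genes (7.56% and 14.2%), with a median log2 fold change of 0.05. The vesicular polyamine transporter Slc18b1 was the higher one, at 24.4, 24.1 and 19.4 CPM untreated and 33, 32.9 and 33.8 CPM treated. Azin1, which frees Odc1 from antizyme, was among the lower ones, at 225, 280.0 and 288 CPM untreated and 173, 194 and 212 CPM treated (adjusted p = 0.263). Cav1, a caveolar coat protein linked to polyamine uptake and abundant in stroma, was another, at 48.9, 77.9 and 84 CPM untreated and 19.2, 31.7 and 31.2 CPM treated. Neither the lower members nor Slc18b1 passed the test (adjusted p = 0.294 for Slc18b1). In the hypusine pathway Eif5a itself measured 442, 424 and 414 CPM untreated and 545, 469 and 449 CPM treated (log2 fold change 0.19, adjusted p = 0.631), with all treated libraries above all untreated ones. Dhps, the enzyme that starts hypusine formation, measured 15.3, 14.7 and 16.4 CPM untreated and 19.4, 16 and 17.4 CPM treated. Among the 4 tested genes of this list 1, the minor form Eif5a2, had all treated libraries lower, at 2.21, 2.37 and 4.41 CPM untreated and 0.547, 0.756 and 1.54 CPM treated (adjusted p = 0.136).

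Spermidine is known for inducing autophagy in several models. Of 23 autophagy and lysosome genes, 16 had a fold change above 0 and 3 were higher without overlap (7.56% of all genes were), with a median log2 fold change of 0.05. Tfe3, a transcription factor of lysosomal genes, measured 34.1, 28 and 34.5 CPM untreated and 46.8, 42.5 and 41 CPM treated (log2 fold change 0.43, SE 0.11, adjusted p = 0.101). Ctsd, the lysosomal protease cathepsin D, measured 311, 307 and 324 CPM untreated and 375, 393 and 405 CPM treated, and the autophagy receptor Sqstm1 257, 303 and 263 and 313, 372 and 389 CPM. These treated libraries exceeded the untreated ones by less than 1.5-fold on average, and 0 genes of the list passed the test.

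Tmx4 belongs to a family of redox proteins that handle disulfide bonds. Of 19 genes for thiol enzymes and thioredoxin-like proteins of the endoplasmic reticulum, 15 had a fold change above 0, 4 were higher without overlap and 1, Tmx4, lower, with a median log2 fold change of 0.21. Txndc12, a soluble member, measured 37.5, 26.1 and 30.6 CPM untreated and 46.5, 34.6 and 36.5 CPM treated, with overlap. P4hb, protein disulfide isomerase, measured 701, 603 and 778 CPM untreated and 834, 865 and 856 CPM treated, all higher. In the unfolded protein response 16 of 19 genes had a fold change above 0 and 3 were higher and 1 lower without overlap. The chaperone Hspa5 measured 288, 367 and 245 CPM untreated and 479, 447 and 367 CPM treated (adjusted p = 0.294), with spermidine replicate 3 level with untreated replicate 2.

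A rule based on p, level and absence of overlap named 12 higher and 12 lower genes, and the fit without untreated replicate 3 added Ehd1, Micall2, Tarsl2 and Arrdc3. That fit called 7 genes (0.0352%): Tmx4, Tarsl2, Arrdc3 and Bicd1 lower, and Ehd1, Micall2 and Shb higher. The 12 higher genes had folds of 1.39 to 2.09, each with an adjusted p of 0.0876, and the 12 lower genes folds of 1.49 to 5.62. They are shown because they have the lowest p among genes whose groups separate, and apart from Tmx4 none passed the test with all libraries.

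The higher genes are taken by what they are known to do, beginning with endocytosis and cell polarity. Epn3 measured 26.1, 25 and 26.7 CPM untreated and 64.3, 41.4 and 56.7 CPM treated (log2 fold change 1.06, SE 0.19). Llgl2, a scaffold of the basolateral domain, measured 152, 160.4 and 122 CPM untreated and 227, 266 and 239.7 CPM treated. Every treated library was above every untreated one for both genes. Trp53bp2, a p53-binding protein that also acts in cell polarity, measured 57.5, 53.8 and 55.9 CPM untreated and 75.4, 79.9 and 76.9 CPM treated, and Mark4, a microtubule-affinity regulating kinase, 31.1, 28.7 and 33.3 and 45, 50.7 and 44.1 CPM. Cdc42se2, a small effector of Cdc42, measured 85.6, 87.2 and 61.1 CPM untreated and 117, 131 and 119.5 CPM treated. All 3 genes were separated by library, at folds of 1.39 to 1.57. Micall2, a Rab13 effector at tight junctions, measured 35.6, 32.7 and 46.1 CPM untreated and 58.8, 69 and 53.1 CPM treated. Ehd1, of the endocytic recycling route, measured 74.4, 62.3 and 115 CPM untreated and 133, 136 and 130.2 CPM treated. In the last 2 genes untreated replicate 3 was the highest of its group.

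The remaining higher genes are regulators of other kinds. Map2k3, the kinase upstream of p38, measured 105, 101 and 102 CPM untreated and 159.5, 177 and 167 CPM treated, with narrow spread in both groups. Cptp, a ceramide-1-phosphate transfer protein, measured 29.9, 27.6 and 28.7 CPM untreated and 45.1, 41.3 and 43.7 CPM treated. Shb, a signalling adaptor with an SH2 domain, measured 30.9, 23.2 and 35 CPM untreated and 58.2, 60.3 and 46.4 CPM treated. Treated values exceeded untreated values in all of these. Men1 (menin, a chromatin scaffold) measured 31.8, 26.2 and 29 CPM untreated and 51, 47.5 and 40.04 CPM treated. Fbxo42 and Klhl18, adaptors of ubiquitin ligases, ranged over 31.8 to 40.3 and 25.8 to 28.7 CPM untreated and 49.2 to 53.5 and 39.7 to 43.4 CPM treated. Prr14, which tethers chromatin to the nuclear lamina, ranged over 36.7 to 41.4 CPM untreated and from 53.1 CPM upwards in treated libraries.

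Of the 12 lower genes, Chl1, Ahi1 and Atl1 had the largest folds. Chl1, a neural cell adhesion molecule, measured 10.8, 11.7 and 36.7 CPM untreated and 3.04, 2.88 and 4.6 CPM treated, 5.62-fold lower by the fit (log2 fold change -2.49, SE 0.58, adjusted p = 0.101). Ahi1, a protein of the ciliary transition zone, measured 10.05, 8.07 and 22.1 CPM untreated and 3.43, 2.58 and 4.29 CPM treated. Atl1, an atlastin that shapes the endoplasmic reticulum and is prominent in neurons, measured 4.42, 3.98 and 9.004 CPM untreated and 1.79, 1.62 and 2.19 CPM treated. In all 3 genes untreated replicate 3 was the highest of the 6 libraries, and the treated libraries also lay below the other untreated ones. Without that library the log2 fold changes were -1.62 for Chl1, -1.34 for Ahi1 (-1.96 with it) and -1.11 for Atl1 (-1.64 with it). Kifap3, the accessory subunit of kinesin-2, measured 23.8, 23.5 and 27 CPM untreated and 16.8, 16.5 and 16.7 CPM treated, with little spread in either group. Efcab2, an EF-hand protein of axonemes, measured 6.43, 6.38 and 7.45 CPM untreated and 3.46, 3.36 and 3.72 CPM treated. Bicd1, a dynein adaptor, measured 7.12, 8.24 and 3.5 CPM untreated and 2.93, 2.49 and 2.66 CPM treated, with untreated replicate 3 the lowest of its group.

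The other lower genes have varied roles. Clcn6, a chloride-proton exchanger of late endosomes, measured 7.996, 8.2 and 11.7 CPM untreated and 3.96, 3.72 and 4.1 CPM treated. Csgalnact2, an enzyme of chondroitin sulfate synthesis, measured 11.1, 12.7 and 11.3 CPM untreated and 6.62, 7.13 and 8.12 CPM treated. The groups did not overlap in either gene. Srek1 and Cwf19l2, both tied to splicing, measured 53.3 to 77.1 and 22.4 to 36.7 CPM untreated and 33.6 to 45.8 and 14.9 to 19.3 CPM treated. Tarsl2, a threonyl-tRNA synthetase paralog, measured 11.7, 14.1 and 5.5 CPM untreated and 5.38, 5.55 and 3.62 CPM treated, and Arrdc3, an alpha-arrestin, 48.9, 94 and 22.9 and 23.4, 23.6 and 28.6 CPM. In these last 2 genes untreated replicate 3 lay at or under the level of the treated libraries, and edgeR called them only in fits without it.

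**Figure D2:**
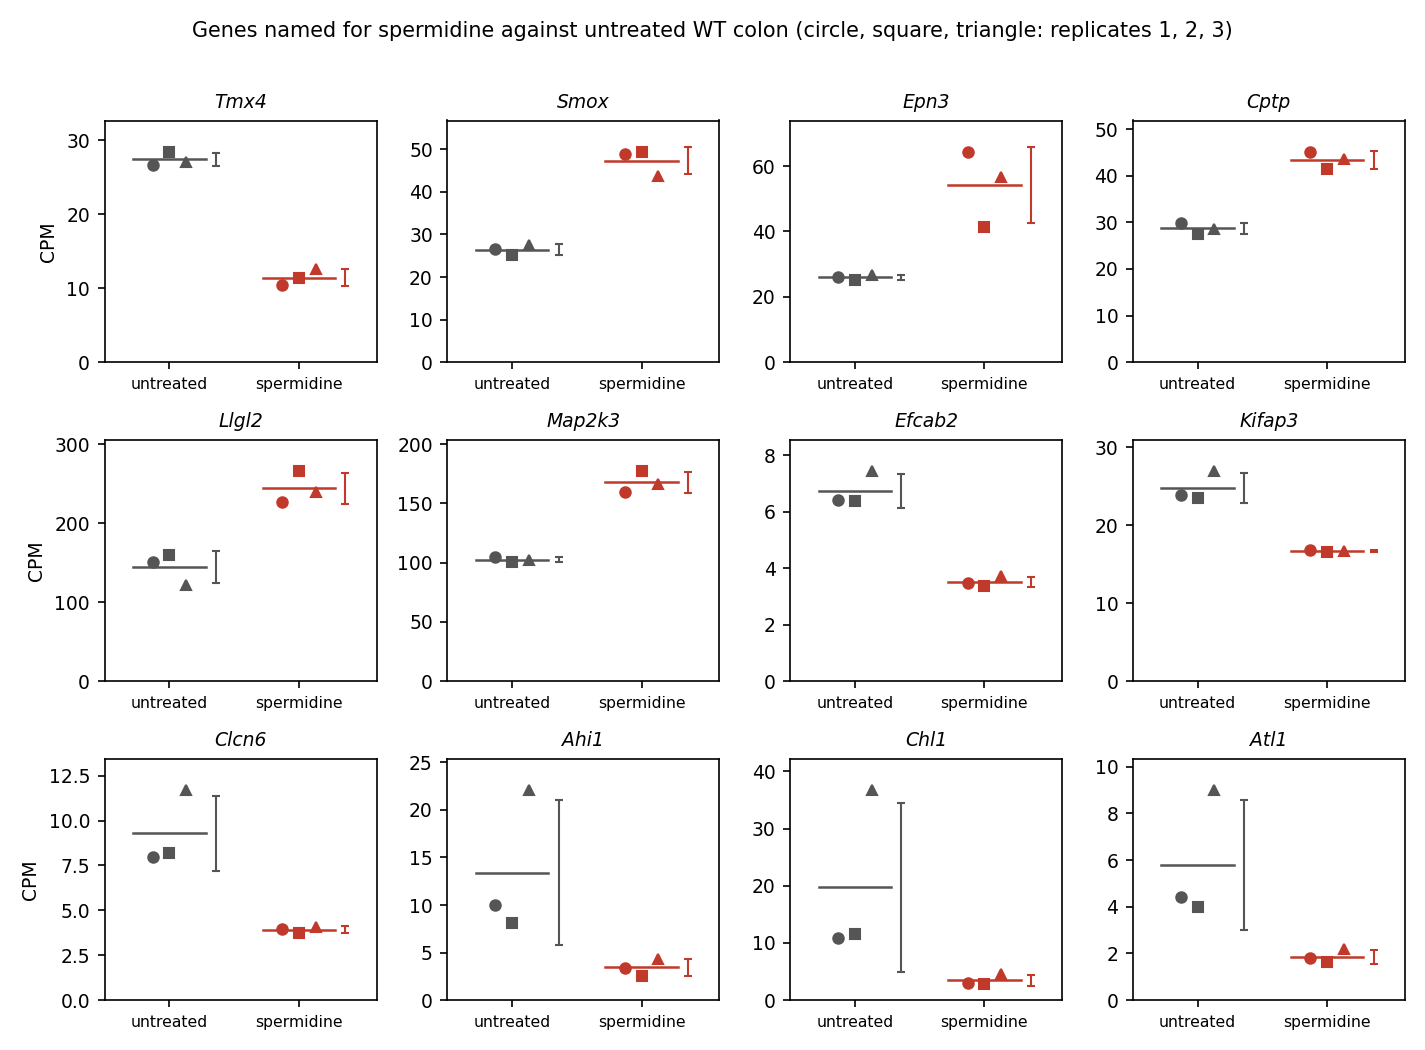
CPM (vertical axis, from 0) of 12 of the named genes in untreated and spermidine-treated WT colon, 1 symbol per replicate, with the mean as a line and the SD as the bar beside it (n = 3). The groups do not overlap in any panel, and untreated replicate 3 (triangle) is far above its group mates for Ahi1, Chl1 and Atl1.

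Of 837 list entries in 49 lists, 808 were tested, 6 were not found in the table and 23 did not pass the filter. These cover 790 different genes tested, of which 1, Tmx4, was called. The lists with the largest shares of members without overlap were those of nerve and muscle. Of 20 enteric neuron genes, 0 had a fold change above 0, 18 were lower without overlap (against 14.2% of all genes) and the median log2 fold change was -2.18. The count was 18 without untreated replicate 3 too, against 27.5% of all genes then, and the median moved to -1.27. Ret, the receptor through which enteric neurons receive GDNF, measured 24.1, 16.8 and 65.9 CPM untreated and 6.29, 6.62 and 10.4 CPM treated (log2 fold change -2.196, SE 0.56, adjusted p = 0.109). Tubb3, neuronal tubulin, measured 19.1, 16.4 and 70.5 CPM untreated and 6.07, 4.73 and 10.2 CPM treated, and Snap25, of the synaptic release machinery, 20.3, 18.1 and 64.3 and 6.87, 6.04 and 10.7 CPM. Untreated replicate 3 was 3 or more times as high as its group mates in Tubb3 and Snap25, and the other untreated libraries were still above all treated ones.

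Enteric glia and smooth muscle genes also lay mostly below the untreated level. Of 12 glial genes, 9 were lower without overlap, with a median of -1.98, which was -1.23 without untreated replicate 3. The glial sodium channel gene Scn7a measured 7.29, 9.06 and 29.2 CPM untreated and 2.61, 3.29 and 3.98 CPM treated. Of 17 smooth muscle genes, 0 had a fold change above 0 and 15 were lower without overlap, with a median of -1.06. In the lower direction 1 of these 17 had an unadjusted p under 0.05, against 10.7% of all genes. Of the glial genes 9 had, and of the enteric neuron genes 14. The actin-filament protein Tpm1 measured 929, 1217 and 2325 CPM untreated and 618, 688 and 859 CPM treated (adjusted p = 0.124), and smoothelin, Smtn, 138, 206 and 170.1 and 80.4, 98.9 and 118 CPM (adjusted p = 0.453). The smooth muscle list summed to 7534, 11327 and 10816 CPM in untreated and 3270.0, 4465 and 5894 CPM in treated libraries. The neuron list summed to 319.9, 266 and 948 CPM in untreated and 108, 92.2 and 158 CPM in treated libraries. Each untreated sum exceeded each treated sum for both lists. The glial sums overlapped, at 392.4, 531 and 473 CPM in untreated and 313, 456 and 458 CPM in treated libraries. How much muscle wall each sample held is not given in the labels, and its part in these values was not tested.

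Other stromal lists leaned the same way with fewer separated members. Of 19 fibroblast and matrix genes, 0 had a fold change above 0 and 9 were lower without overlap, with a median of -1.06. In the lower direction 2 of the 19 had an unadjusted p under 0.05 (10.7% of all genes had). Thy1, a fibroblast surface protein that neurons also carry, measured 15.3, 16.3 and 45.6 CPM untreated and 7.49, 9.58 and 10.1 CPM treated. Sparc, a matrix glycoprotein, measured 71.2, 111 and 215 CPM untreated and 47.8, 49 and 48.5 CPM treated, with little spread among the treated libraries. Of 14 endothelial genes, 0 had a fold change above 0 and 5 were lower without overlap, with a median of -0.70, and 1 had an unadjusted p under 0.05. Lyve1, the lymphatic hyaluronan receptor, measured 20.2, 25.5 and 34.9 CPM untreated and 6.07, 11.9 and 12.6 CPM treated. Of 6 genes of interstitial cells of Cajal, the gut pacemakers, 2 had a fold change above 0 and 2 were lower without overlap. Among the lower ones was the transcription factor Etv1 at 7.35, 7.36 and 18.4 CPM untreated and 2.64, 2.9 and 4.2 CPM treated. The sums of this list overlapped, at 243, 292 and 56.8 CPM in untreated and 175, 175 and 120 CPM in treated libraries.

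**Figure D3:**
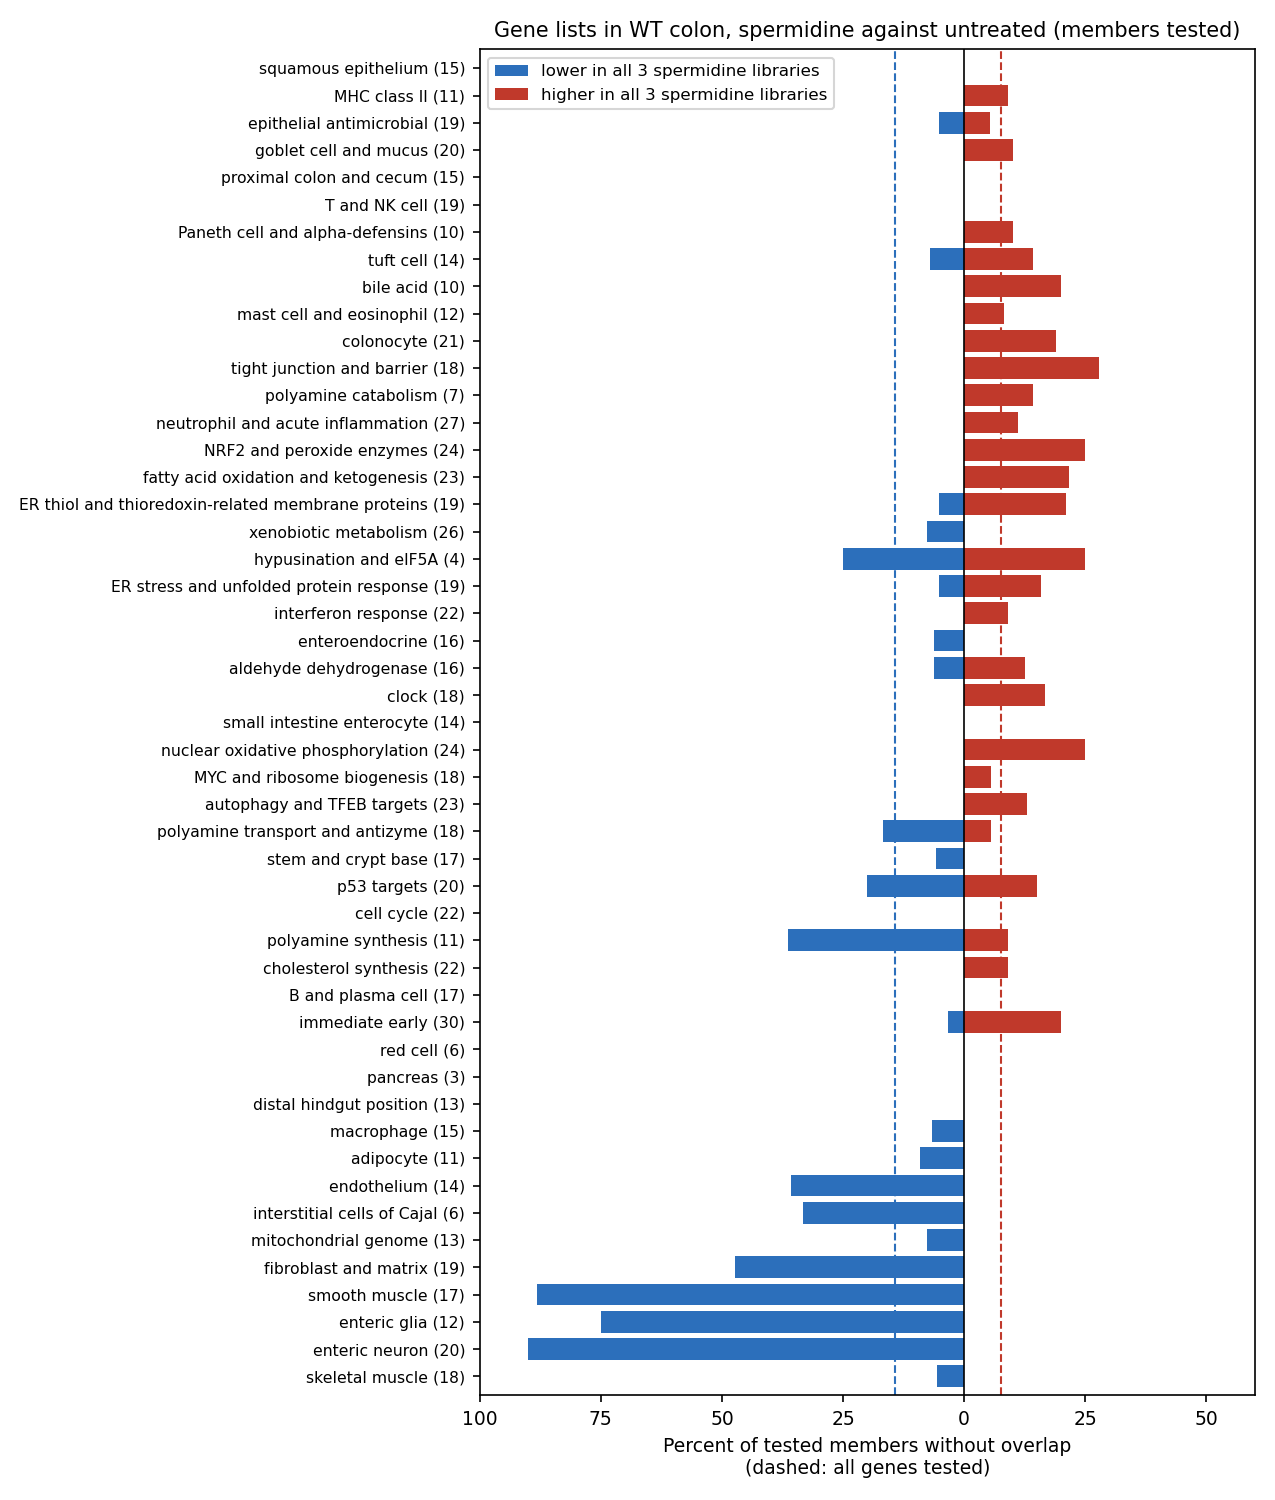
Percent of tested members of each of the 49 gene lists (horizontal axis) whose 3 spermidine libraries all lay above (red, right) or all below (blue, left) the 3 untreated libraries, with the number of members tested in parentheses. Dashed lines mark all genes tested (7.56% and 14.2%), lists are ordered by median fold change, and enteric neuron, smooth muscle and enteric glia genes reach farthest to the left.

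Junction and colonocyte lists had medians above 0. Of 18 tight junction and barrier genes, 16 had a fold change above 0 and 5 were higher without overlap, with a median log2 fold change of 0.31. Cldn3, a sealing claudin, measured 548, 570.4 and 554 CPM untreated and 780.3, 816 and 803 CPM treated (log2 fold change 0.52, SE 0.19, adjusted p = 0.187). Cgn, cingulin, measured 207, 201 and 186 CPM untreated and 223, 302 and 275 CPM treated, and F11r, a junctional adhesion molecule, 318, 297 and 377 and 404, 431 and 426 CPM. Cdh1, E-cadherin of the adherens junction, measured 1054, 1101 and 805 CPM untreated and 1205, 1393 and 1198 CPM treated. All treated libraries were above all untreated ones in these 4 genes. Of 21 colonocyte genes, 16 had a fold change above 0 and 4 were higher without overlap, with a median of 0.33. In the higher direction 1 of the 21 had an unadjusted p under 0.05 (5.42% of all genes had). The list summed to 18595, 12211 and 41535 CPM in untreated and 20330, 31865 and 40354 CPM in treated libraries, with overlap. The sodium-proton exchanger Slc9a3, which absorbs sodium at the apical surface, measured 17, 8.95 and 51.5 CPM untreated and 108, 108 and 136 CPM treated (log2 fold change 2.19, SE 0.95, adjusted p = 0.26). Cdhr5, a cadherin of the brush border, measured 662, 765 and 963 CPM untreated and 1059, 1145 and 1166 CPM treated.

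All 20 goblet cell and mucus genes had a fold change above 0 (45.3% of all genes had), with a median of 0.71. Of the 20, 2 were higher without overlap, a share near the 7.56% of all genes. The mean log2(CPM + 0.5) of the list, relative to the median of the 6 libraries, was -0.18, -0.12 and -0.46 in untreated and 1.12, 0.49 and 0.12 in treated libraries, so each treated mean was above each untreated one and spermidine replicate 1 was the highest. Muc2, the main gel-forming mucin, measured 526, 631 and 725 CPM untreated and 5187, 1700.1 and 607 CPM treated, and its regulator Spdef 19.3, 17.7 and 21.7 and 128, 36.9 and 19.3 CPM. In these 2 genes spermidine replicate 1 was far above the rest and replicate 3 was within the untreated range. B3gnt6, which extends mucin sugars, measured 1.61, 0.985 and 3.98 CPM untreated and 19.6, 6.75 and 4.95 CPM treated, without overlap.

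Genes of the response to oxidants are of interest because polyamine oxidation releases peroxide. Of 24 genes of the NRF2 pathway and of peroxide removal, 19 had a fold change above 0, 6 were higher without overlap and 0 lower, with a median of 0.26. Txnrd1, thioredoxin reductase, measured 212, 231 and 241 CPM untreated and 290.2, 309 and 302 CPM treated (adjusted p = 0.315), and the peroxidase Gpx1 256, 254 and 273 and 364, 283 and 318 CPM. Gclc, of glutathione synthesis, measured 97, 86.2 and 108 CPM untreated and 109, 148 and 144 CPM treated, and Osgin1 23.4, 21.1 and 35 and 37.4, 38.1 and 38.7 CPM. The treated libraries were above the untreated ones in all 4, by less than 2-fold on average. None of the 24 had an unadjusted p under 0.05 (0, against 5.42% of all genes in this direction).

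Mitochondrial genes are described by genome. None of the 13 genes of the mitochondrial genome had a fold change above 0, 12 had an unadjusted p under 0.05 in the lower direction (10.7% of all genes had) and 1, mt-Atp6, was without overlap, with a median of -0.98 that was -0.08 without untreated replicate 3. This subunit of ATP synthase measured 6331, 5572 and 20202 CPM untreated and 2633, 3405 and 5209.9 CPM treated (log2 fold change -1.51, SE 0.39, adjusted p = 0.111), and without untreated replicate 3 the log2 fold change was -0.61. Of 24 nuclear genes of oxidative phosphorylation, 20 had a fold change above 0 and 6 were higher without overlap, with a median of 0.09. Cyc1, cytochrome c1, measured 341, 323 and 325 CPM untreated and 429.9, 425 and 433 CPM treated, and Sdhb of complex II 186, 167 and 208 and 247, 238 and 239.8 CPM. Of 23 genes of fatty acid oxidation and ketogenesis, 22 had a fold change above 0 and 5 were higher without overlap, with a median of 0.22. Cpt1a, which admits fatty acids to mitochondria, measured 253, 268 and 271 CPM untreated and 323, 391 and 359 CPM treated, all higher, at an adjusted p of 0.335. Without untreated replicate 3 the counts without overlap were 18 of 24 and 18 of 23 for the nuclear and fatty acid lists, against 17.6% of all genes. With all libraries, 1 of the 24 and 0 of the 23 had an unadjusted p under 0.05 in the higher direction (5.42% of all genes had).

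In some lists a single library stood apart. Of 18 skeletal muscle genes, 11 had an unadjusted p under 0.05 in the lower direction (10.7% of all genes had), yet 1 was lower without overlap (14.2% of all genes were). The median of -4.19 was 4.39 without untreated replicate 3. Mylpf, a myosin light chain of fast muscle, measured 1.38, 1.03 and 504 CPM untreated and 19.9, 1.23 and 8.12 CPM treated, so its log2 fold change of -4.11 came from untreated replicate 3 and was 3.08 without it. Of 15 squamous epithelium genes, 0 were without overlap although the median was 2.35. Krt13, a keratin of stratified epithelium, measured 0.176, 0.125 and 0.0577 CPM untreated and 94.9, 0.123 and 0.077 CPM treated, high in spermidine replicate 1 and at or under 0.176 CPM elsewhere. MHC class II genes had a median of 2.33, with 1 of 11, H2-DMb1, without overlap (2.78, 3.37 and 3.62 CPM untreated, 7.33, 82.4 and 4.12 CPM treated). Cd74, the invariant chain, measured 27.5, 62.2 and 55.7 CPM untreated and 143, 1631 and 39.7 CPM treated, highest in spermidine replicate 2, while replicate 3 lay within the untreated range. The 22 interferon response genes summed to 649, 689 and 2793 CPM in untreated and 1034, 1831 and 1891 CPM in treated libraries, highest in untreated replicate 3. With all 6 libraries 2 of them were higher without overlap and the median was 0.17, and without untreated replicate 3 the count was 21, against 17.6% of all genes, and the median 1.61. The 2 genes were Iigp1 at 1.77, 2.65 and 3.31 CPM untreated and 13.5, 149 and 3.48 CPM treated and Gbp2 at 13.4, 27.5 and 16.4 and 49.1, 261 and 42.7 CPM, both highest in spermidine replicate 2. Of 22 cell cycle genes 0 were without overlap in either direction, and the median was -0.01. Their sum was lowest in untreated replicate 3 (408 CPM, against 831 to 1455 CPM in the other 5), and without it 9 were lower without overlap, against 27.5% of all genes, with a median of -0.30.

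**Figure D4:**
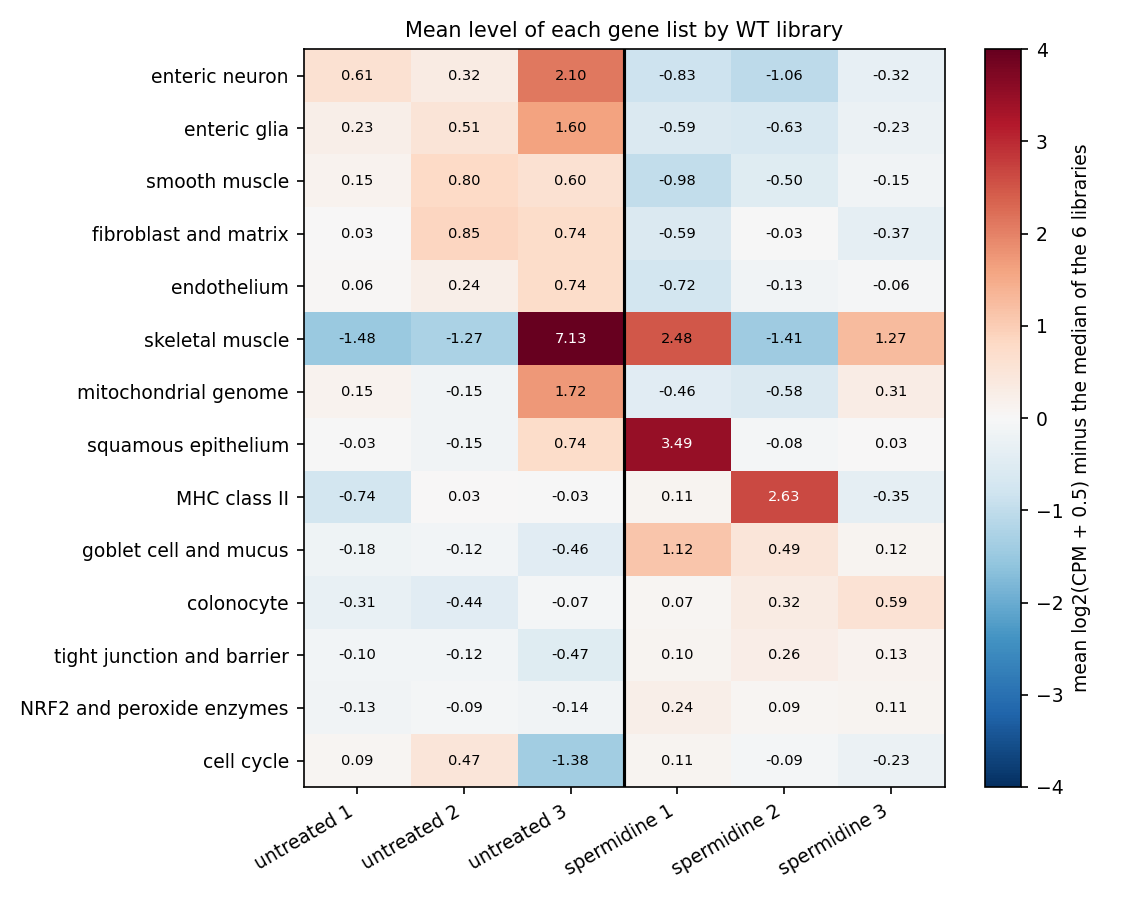
Mean log2(CPM + 0.5) of the members of 14 gene lists in each WT library (columns), minus the median of the 6 libraries, as printed value and as colour that stops at 4 on either side. Enteric neuron, glia and smooth muscle lists are above 0 in the 3 untreated and below 0 in the 3 treated libraries. Squamous (3.49, spermidine replicate 1) and MHC class II (2.63, spermidine replicate 2) lists stand out in 1 library each. Skeletal muscle is highest in untreated replicate 3 (7.13) and is also above 0 in spermidine replicates 1 (2.48) and 3 (1.27).

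The series holds 3 further comparisons of spermidine with none that share no library with the one above: in Smox colon without AOM-DSS, and in non-tumor tissue after AOM-DSS of either genotype. With edgeR each of them called 0 genes (0.0%), with 1825 (9.33%), 1109 (5.67%) and 2676 (13.7%) genes at an unadjusted p under 0.05. They can be read for the genes named in WT colon. In WT colon after AOM-DSS, all 12 of the higher genes also had a fold change above 0, against 45.5% of all genes, and 8 of the 12 lower genes one under 0, against 54.0%. In Smox colon after AOM-DSS the counts were 11 of 12, against 50.2%, and 10 of 12, against 49.5%. Beyond the named genes, all genes without overlap in WT colon can be read too. After AOM-DSS the same sign was held by 68.6% of the higher and 78.5% of the lower ones in WT colon. In Smox colon the shares were 54.4% and 69.5%. For the named genes given here, the sizes were smaller than those from all libraries in WT colon. Epn3, at 1.06 in WT colon without AOM-DSS, was 0.08 (SE 0.19) and 0.58 (SE 0.19) in WT and Smox colon after AOM-DSS. Chl1 was -1.34 (SE 0.57) and -1.69 (SE 0.57), and Ahi1 -1.21 (SE 0.44) and -0.93 (SE 0.43). Without untreated replicate 3 the sizes of Chl1 and Ahi1 in WT colon, given above, were smaller too. That of Chl1 was then no larger than in Smox colon after AOM-DSS. For Tmx4 the log2 fold changes were -0.09 (SE 0.18) and -0.42 (SE 0.18).

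In Smox colon without AOM-DSS most named genes had the opposite sign. Of the 12 higher genes 2 had a fold change above 0, against 51.5% of all genes, and of the 12 lower genes 0 had one under 0, against 48.2%. Over all genes without overlap in WT colon, 22.6% of the higher and 18.2% of the lower ones had the same sign. The enteric neuron list had a median of 1.76 there and smooth muscle 1.07, against -2.18 and -1.06 in WT colon. After AOM-DSS the medians were -1.51 in WT and -1.27 in Smox colon for enteric neuron genes, and -0.14 and -0.49 for smooth muscle. Tested directly, the response to spermidine differed between the libraries labelled Smox and WT in 569 genes (2.91% of those tested), 427 with the larger value in Smox (2.18%) and 142 in WT (0.726%), and 20.3% had an unadjusted p under 0.05. Tmx4 was one of them, with a difference of 1.82 (SE 0.26, adjusted p = 0.0095), and Smox another, at -1.28 (SE 0.34, adjusted p = 0.0449). Of the named genes, 12 of the 15 higher and 10 of the 14 lower ones were among the 569, but they were named on the same WT libraries that enter this difference. The count of 569 was 0 when WT spermidine replicate 1 or 2, Smox untreated replicate 3 or Smox spermidine replicate 3 was left out, 1 without replicate 2 of untreated or replicate 1 of treated Smox, and 9 without WT untreated replicate 3 (unadjusted p under 0.05 in 3243 to 3891 genes in these fits).

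**Figure D5:**
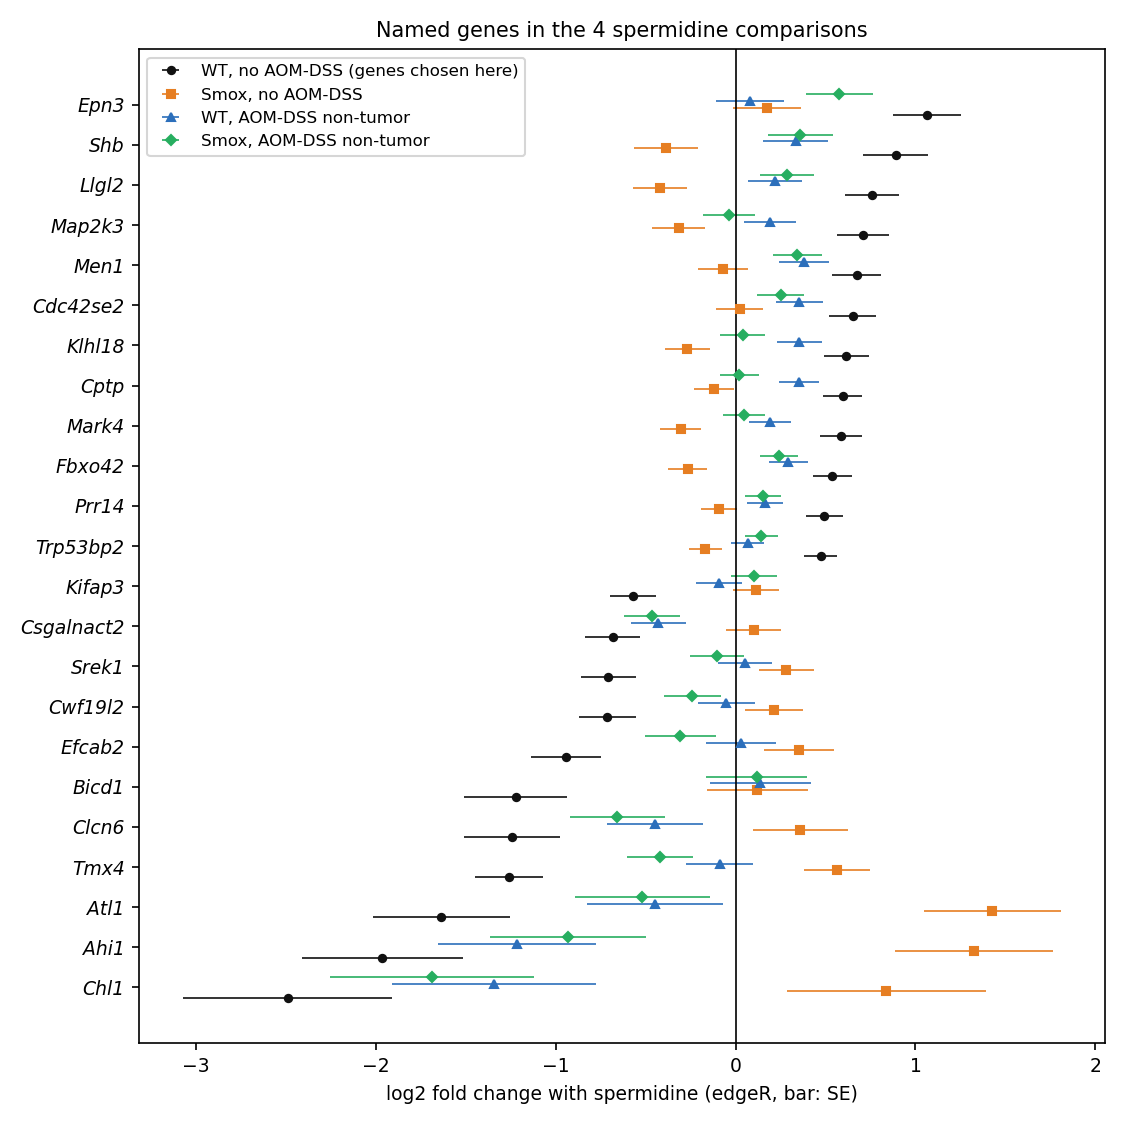
Log2 fold change with spermidine (horizontal axis, bars are SE) of 23 of the 24 genes named by rule in WT colon, in that comparison (black circles) and in 3 comparisons with no library in common. In Smox colon without AOM-DSS (orange squares) 2 of the 12 higher and 0 of the 11 lower genes drawn lie on the same side of 0 as in WT, and after AOM-DSS (blue, green) most do.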

How the data were processed

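Bulk RNA-seq of mouse colon was analysed from 1 table of 31023 genes in 30 libraries. Per the labels' protocols, RNA was isolated with RNeasy Mini columns and libraries were made with a NEBNext Ultra II Directional kit. Fastp, Salmon, DESeq2 and GRCm38 are named in the submitters' processing notes, without settings, and versions are not given in the sources used here. The deposited values are estimated counts per gene, already whole numbers. They were joined by gene identifier to GENCODE vM21 (30965 genes found), which also gave coordinates.

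EdgeR 4.0.16 (R 4.3.3) fitted 1 quasi-likelihood model with robust settings to the 10 groups of 3, with TMM scaling. FilterByExpr (minimum count 10, minimum total 15) kept 19558 genes. Adjusted p is Benjamini-Hochberg over all of these, with a threshold of 0.05, and "fell" is used for genes that pass it. Fold changes are spermidine against untreated. CPM uses TMM-scaled library sizes. "Without overlap" means that all 3 treated libraries lay on one side of all 3 untreated ones. Counts may repeat molecules, so counting error is a lower limit. DESeq2 1.42.0 and limma 3.58.1 (voom with sample quality weights), other scalings and filters and each replicate left out were alternatives. The fit was tested on simulated data, where it recovered 50% of 2-fold and 82% of 4-fold changes, with 5.04% of calls false. Changed genes came only from those with a mean above 5 CPM over the WT untreated and spermidine libraries. Recovery at lower levels was not tested. Simulated libraries shared 1 mean and 1 dispersion per gene apart from these changes, so none stood apart as untreated replicate 3 did.

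Named genes were Smox, called genes, up to 12 genes a direction by lowest p without overlap (5 CPM or more on average in the higher group and 3 counts or more in each lower library, no predicted genes), genes called without untreated replicate 3, genes within 1 Mb of a called gene and up to 4 members of a described list by lowest p. The comparison, the lists and these rules were chosen with earlier results of these data known, so lists carry no test. The list that holds Tmx4 was chosen with Tmx4 known. Some genes that these rules name are not reported here. Replicates are numbered in accession order.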

Additional observations from a re-analysis of the deposited data

Results flagged for a closer look

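The response to spermidine, taken as the log2 fold change in Smox colon minus that in WT colon, was tested for a difference between the genotypes as labelled, and 569 genes differed (2.91% of those tested by edgeR). The values named here are the genes with the lowest p in each direction among the named and list genes described above, and Smox. Positive differences were found for Tmx4 (1.82), Atl1 (3.06), Ahi1 (3.29), mt-Atp6 (2.90) and Efcab2 (1.30), each of which had a fold change under 0 in WT and above 0 in Smox colon. Negative differences were found for Micall2 (-1.17), Llgl2 (-1.18), Mark4 (-0.89), Fbxo42 (-0.80), Shb (-1.28) and Smox (-1.28), each above 0 in WT and under 0 in Smox colon. Tmx4 measured 26.7, 28.4 and 27.1 CPM in untreated and 10.4, 11.3 and 12.6 CPM in spermidine-treated WT libraries, and 10.9 to 13.3 CPM in untreated and 16.1 to 22.5 CPM in spermidine-treated Smox libraries. The genes other than Smox were chosen with the WT libraries that enter the difference. The count of 569 fell to 10 without WT untreated replicate 3 and the Smox AOM-DSS spermidine non-tumor replicate 1.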

How the results depend on the processing

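For spermidine in WT colon, the count of genes called was 1 with RLE scaling, with no filter on low counts and with a minimum of 1 CPM in 3 libraries. It was 0 by edgeR when only the groups compared were fitted (2695 genes at an unadjusted p under 0.05), 52 without both libraries that stood apart (38 higher, 14 lower), 910 with DESeq2 and 4312 with limma-voom. Leaving out 1 library gave 0 to 7 genes, with 2066 to 3376 genes at an unadjusted p under 0.05. Without spermidine replicate 2 the 1 gene called was Epn3 (log2 fold change 1.24, adjusted p = 0.0399). The genotype difference of 569 genes was 609 with RLE scaling, 545 with the 1 CPM filter, 612 with only the groups compared, 261 with no filter, 10 without both libraries that stood apart, 1783 with DESeq2 and 4498 with limma-voom. Leaving out 1 library gave 0 to 859 genes. The causes were not tested. Mylpf turned to 3.08 without untreated replicate 3, 3.08 without both libraries that stood apart and 1.13 with limma-voom, and ran from -5.16 to 3.08 with 1 library left out. Krt13 turned to -0.25 without spermidine replicate 1, in a range of -0.25 to 8.62. Tmx4 was lower under each alternative run. Among the list medians recomputed under the alternatives, 460 moved by less than the replicate spread of the list and 79 by more. Counts without overlap were 2502 higher and 3470 lower without spermidine replicate 1, and 1832 and 3205 without replicate 2, alternatives chosen after seeing the data. No paired analysis was possible because the labels carry no replicate numbers that groups share. Replicates differed by 13.2 to 148 times sampling noise, so the 3 libraries a group limit the precision more than the depth does.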

Other observations

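Clock and early-response genes separated in part, where 7.56% of all genes were higher and 14.2% lower without overlap. Of 18 clock genes, 3 were higher without overlap and 0 lower, with a median log2 fold change of 0.14. Per2, a repressor of the molecular clock, measured 18.6, 14.5 and 7.14 CPM untreated and 32.8, 24.3 and 39 CPM treated (log2 fold change 1.25, SE 0.34, adjusted p = 0.12), and Ciart, another clock repressor, 3.05, 1.997 and 2.08 and 5.19, 3.72 and 6.33 CPM. The labels do not give the hour of tissue collection. Of 30 immediate early genes, 6 were higher and 1 lower without overlap, with a median of -0.07. The AP-1 subunits Jund and Fosb measured 563, 589.8 and 703 and 6.12, 13.7 and 4.64 CPM untreated and 859.5, 789 and 842 and 24.3, 16.5 and 28.9 CPM treated. Ccn1, a matrix signalling protein, measured 5.84, 13.4 and 15 CPM untreated and 3.63, 3.04 and 4.1 CPM treated, the lower one.

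Of 16 aldehyde dehydrogenase genes, which clear the aldehydes that polyamine oxidation also makes, 2 were higher and 1 lower without overlap. The counts here and for the next 3 lists rest on 1 to 4 genes each, against 7.56% higher and 14.2% lower of all genes. The lower one, Aldh1a2, makes retinoic acid and measured 1.19, 0.513 and 7.06 CPM untreated and 0.273, 0.422 and 0.212 CPM treated (adjusted p = 0.114), highest in untreated replicate 3. Of 20 p53 target genes, 3 were higher and 4 lower without overlap. Polk, a translesion DNA polymerase, measured 12, 12.3 and 5.96 CPM untreated and 17, 16.1 and 14 CPM treated, and Bbc3, which promotes apoptosis, 9.8, 14.1 and 8.99 and 6.03, 6.2 and 8.18 CPM. Of 10 bile acid genes, 2 were higher without overlap, among them the receptor gene Nr1h4 at 50.4, 58.4 and 62.2 CPM untreated and 78.7, 81.8 and 87.9 CPM treated. Of 14 tuft cell genes 2 were higher and 1 lower without overlap, with the cation channel Trpm5 at 0.967, 0.694 and 3.16 CPM untreated and 5.32, 3.2 and 4.22 CPM treated. None of these genes passed the test.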
